A study of Mus musculus with 6 samples.

Results

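The 10 genes described here encode receptors that set how strongly a T cell responds: the CD28 family (Cd28, Icos, Ctla4, Pdcd1 and the related Btla), the receptors of nectins and the poliovirus receptor (Tigit, Cd96 and Cd226), and the inhibitory receptors Lag3 and Havcr2. They were taken by gene name from the 55840 genes of the deposited table, and each name matched 1 row. All 10 had enough counts to be tested, among 14919 tested genes. The libraries came from mouse regulatory T cells (Tregs), a CD4 lineage held in place by the transcription factor Foxp3, of spleen and lymph nodes. There were 3 libraries of the genotype WT and 3 of the genotype Exon2KO, which the series title writes as Foxp3∆2, a Foxp3 without exon 2. No treatment was named for either group, and strain, age, sex, the way the cells were sorted and the way the exon was removed were not given in the sources used here. The labels call the libraries biological replicates, and the columns of the table carry the genotype with the number 2, 6 or 20, which names the libraries below.

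T cell activation needs a signal from the antigen receptor and a second one from costimulatory receptors. CD28 gives that second signal when it binds CD80 or CD86 on antigen-presenting cells, and CTLA-4, which Tregs carry at all times, binds the same ligands with higher affinity and strips them from the presenting cell. ICOS binds ICOS ligand, PD-1 (gene Pdcd1) binds PD-L1 (Cd274) and PD-L2 (Pdcd1lg2), and TIGIT, CD96 and CD226 compete for the poliovirus receptor (Pvr), with TIGIT inhibiting and CD226 activating.

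Total counts ran from 17998216 to 21003496 per library. Levels are given as CPM (counts per 1000000 counts, on scaled library sizes). Foxp3, the altered gene, averaged 712 ± 96.5 CPM in the WT libraries and 812 ± 121 CPM in those of Exon2KO (SD, n = 3 each), with overlapping groups. Counts are per gene, so they do not show which reads hold exon 2, and the labelled genotypes had no check here. Of 10 Treg markers all were tested, and 4 fell in Exon2KO (Il2ra, Ikzf2, Il2rb and Izumo1r), where 1.58% of all tested genes were called lower; with the block described next 5 were called lower, with Tnfrsf18 added, where 5.79% were. Each of the 4 calls was lost in 5 of the 6 fits that left out a library. The lowest WT mean among these markers was that of Tnfrsf18, 157.5 CPM. Both libraries numbered 20 stood apart from the others on the first principal component (33.2% of the variance). Deviations from the group mean correlated between libraries with the same number, which a shift shared by those numbered 20 alone can bring about. Fits with the number as a block are quoted where they change a result, a pairing taken from these same data.

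Ctla4 fell in Exon2KO Tregs, and it was the only one of the 10 receptor genes called by the main test (edgeR's robust quasi-likelihood test, adjusted p under 0.05 over all tested genes). Icos and Tigit had lower values in each Exon2KO library than in any WT library, with larger fitted differences and wider spread, and were above the threshold in that test. Cd28, Pdcd1, Cd96 and Cd226 had fitted differences no larger than 0.20 in size on the log2 scale. For Btla the difference was 0.32, and it passed when the column number entered as a block. So 1 of 10 genes was called lower, where 1.58% of all tested genes were, and 0 of 10 were called higher, where 0.757% were. At an unadjusted p under 0.05 by edgeR there were 5 of the 10, 4 lower and 1 higher, against 12.1% of all tested genes. The groups did not overlap for 3 of the 10, all lower in Exon2KO, where 9.32% of tested genes were lower without overlap. The median log2 fold change was -0.17 over the 10 and 0.0084 over all tested genes.

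How many receptor genes were called depended on the test. DESeq2 called 3 lower (Ctla4, Icos and Tigit; background 2.56%) and 0 higher (background 1.32%). Limma-voom called the same 3 lower (background 1.35%) and 0 higher (background 0.59%), as did edgeR without robust estimation (backgrounds 1.39% and 0.664%). With the column number as a block, edgeR called 1 lower, Ctla4, where 5.79% of tested genes were, and 1 higher, Btla, where 3.93% were. The block without robust estimation called 4 lower (Ctla4, Icos, Tigit and Havcr2; background 5.44%) and Btla higher (background 3.41%). From the libraries numbered 2 and 6 alone, edgeR called Ctla4 lower (background 1.49%) and Btla higher (background 0.931%). In those 4 libraries the groups were apart for 4 receptor genes lower and 2 higher, where 20.5% and 19.6% of tested genes were.

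**Figure D1:**
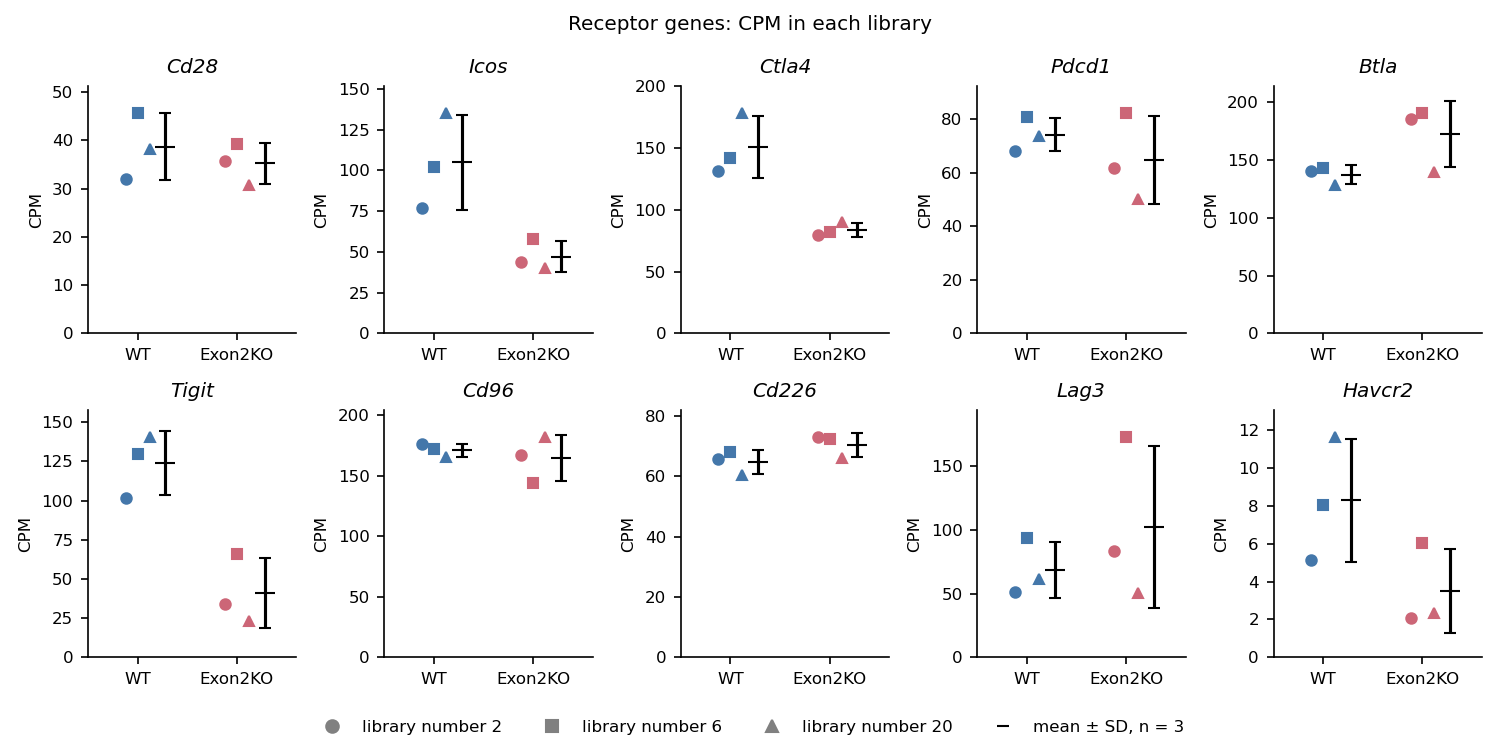
CPM (linear axis from 0) of the 10 receptor genes in each WT (blue) and Exon2KO (red) library; symbol shapes give the column number and bars the mean ± SD of 3 libraries. The groups are apart for Ctla4, Icos and Tigit, and 1 Exon2KO library, number 6, lies high for Lag3.

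Ctla4 (ENSMUSG00000026011, chromosome 1, 60887000 to 60915832, plus strand, GRCm38), the inhibitory receptor for CD80 and CD86, was at 131, 142 and 179 CPM in WT 2, 6 and 20. Its Exon2KO values, in the same order of numbers, were 79.5, 81.9 and 89.7 CPM. Every Exon2KO library was below every WT library, and the Exon2KO values lay close together. Ctla4 fell by 0.85 ± 0.12 on the log2 scale (SE; adjusted p = 0.00677 by edgeR), a level 44.5% lower. Within the libraries of the same number the log2 differences were -0.72, -0.80 and -0.99. The call was lost in 1 of the 6 fits that left out a library, without Exon2KO 2 (-0.82, adjusted p = 0.0566 by edgeR). With the libraries numbered 2 and 6 alone it was -0.76 (adjusted p = 0.0028 by edgeR). The pseudogene Rpl18-ps1 lies inside Ctla4 on the same strand, with 37 counts over all libraries against 13454 for Ctla4.

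Icos (ENSMUSG00000026009, chromosome 1, 60977927 to 61000320, plus strand), a costimulatory receptor of activated T cells and effector Tregs, was at 77.1, 102 and 136 CPM in WT 2, 6 and 20. Its Exon2KO values were 43.6, 57.7 and 39.9 CPM. The groups did not overlap, and WT spread more widely than Exon2KO. The fitted log2 difference was -1.16 ± 0.24 (SE; 95% interval -1.73 to -0.59), with an unadjusted p of 0.0023 and an adjusted p of 0.078 by edgeR. The pairs numbered 2 and 6 differed by -0.82 and -0.83, and the pair numbered 20 by -1.76. DESeq2 (adjusted p = 2.42e-07) and limma-voom (adjusted p = 0.039) called Icos lower, while the block with robust estimation did not (adjusted p = 0.193 by edgeR). The unclassified transcript Gm37039 inside Icos had 237 counts against 8798 for Icos.

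Cd28 (ENSMUSG00000026012, chromosome 1, 60716800 to 60773359, plus strand), the founding costimulatory receptor of the family, had 32.1, 45.8 and 38.3 CPM in WT 2, 6 and 20. Exon2KO had 35.6, 39.3 and 30.7 CPM. The groups overlapped and the pairs went in different directions: Exon2KO was higher for number 2 and lower for numbers 6 and 20. The fit put Cd28 at -0.14 ± 0.14 (SE; adjusted p = 0.833 by edgeR) with a 95% interval from -0.46 to 0.19.

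These 3 genes lie side by side on the plus strand of chromosome 1, in the order Cd28, Ctla4, Icos, over 283.5 kb. The gap between the first 2 is 113.6 kb and that between Ctla4 and Icos 62.1 kb. The fitted log2 differences of the neighbours were -0.14, -0.85 and -1.16 along the cluster. A window reaching 500 kb beyond either end held 34 genes, of which 12 were tested, 7 of them protein-coding. The other 4 protein-coding genes all lie on the Cd28 side: Nbeal1 at 0.14, Cyp20a1 at -0.39, Abi2 at -0.20 and Raph1 at -0.63. Their adjusted p-values lay between 0.314 and 0.778 by edgeR, and the lowest with the block was 0.0797. Over the other settings, single libraries left out among them, Nbeal1 ran from 0.064 (without WT 6) to 0.29 and Cyp20a1 from -0.47 to -0.29. Abi2 ran from -0.38 (without Exon2KO 6) to -0.029, and Raph1 from -0.80 (without WT 6) to -0.28. The upper ends for Nbeal1, Abi2 and Raph1 came from the libraries numbered 2 and 6 alone. On the Icos side no gene outside Icos itself had enough counts to be tested.

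**Figure D2:**
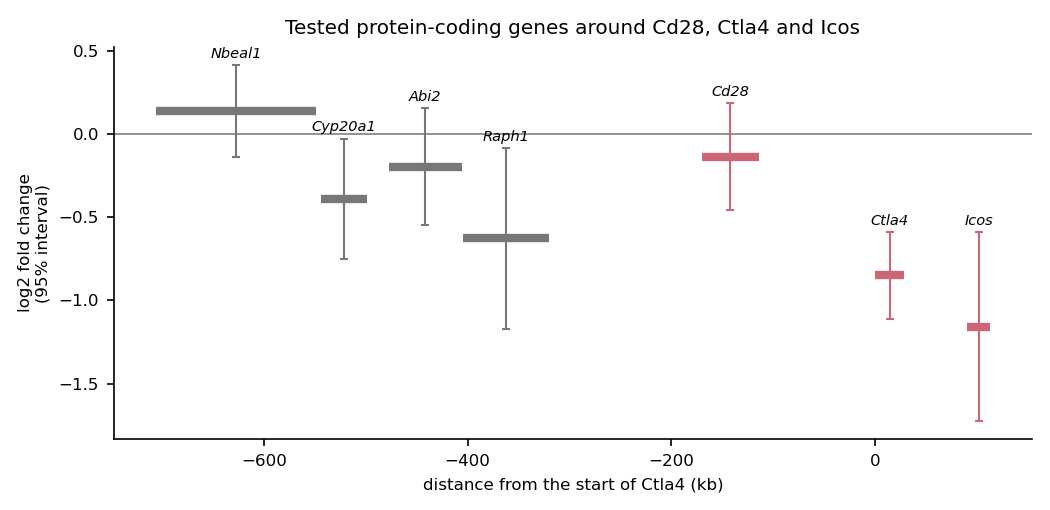
Log2 fold change of the tested protein-coding genes around the cluster (vertical axis, with 95% interval) against their distance from the start of Ctla4 in kb; bar length is gene length, red marks the 3 receptor genes and grey their neighbours. The fitted values of Ctla4 (-0.85) and Icos (-1.16) lie below those of Cd28 (-0.14) and the 4 genes upstream. The interval of Raph1 (-1.17 to -0.08) holds both values.

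CTLA-4 and CD28 share their ligands, so the ratio of their counts within each library was compared, a value that does not depend on library scaling. Ctla4 had 4.10, 3.10 and 4.67 counts per Cd28 count in WT 2, 6 and 20, and Exon2KO 2, 6 and 20 had 2.23, 2.08 and 2.92. All WT ratios were above all Exon2KO ratios. The WT mean of 3.96 ± 0.792 was 1.64-fold the Exon2KO mean of 2.41 ± 0.447 (SD, n = 3 each). An exact two-sided permutation test gave p = 0.1, the smallest that 3 against 3 allow.

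Pdcd1 (ENSMUSG00000026285, chromosome 1, 94038305 to 94052553, minus strand), which encodes the inhibitory receptor PD-1, was at 68.3, 80.6 and 73.9 CPM in WT 2, 6 and 20. Exon2KO had 61.9, 82.5 and 50.02 CPM. The highest and the lowest of the 6 values were both in Exon2KO, so the groups overlapped. The fitted log2 difference was -0.20 ± 0.17 (SE; adjusted p = 0.779 by edgeR), with a 95% interval from -0.59 to 0.20. Pdcd1 stood at -0.42 without Exon2KO 6 and at -0.045 without Exon2KO 20, and was called in neither fit.

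Btla (ENSMUSG00000052013, chromosome 16, 45224315 to 45257670, plus strand) encodes an inhibitory receptor of the same immunoglobulin type whose ligand, HVEM, is the product of Tnfrsf14. WT 2, 6 and 20 were at 140, 144 and 129 CPM. Exon2KO 2, 6 and 20 were at 186, 191 and 139 CPM. Exon2KO was above WT within each number, by 0.41, 0.41 and 0.12 on the log2 scale, but Exon2KO 20 lay between the WT values. Over all libraries Btla stood at 0.32 ± 0.12 (SE; adjusted p = 0.276 by edgeR). With the column number as a block it was called at 0.31 ± 0.07 (SE; adjusted p = 0.00678 by edgeR). With the libraries numbered 2 and 6 alone it was 0.41 (adjusted p = 0.0391 by edgeR), also called.

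**Figure D3:**
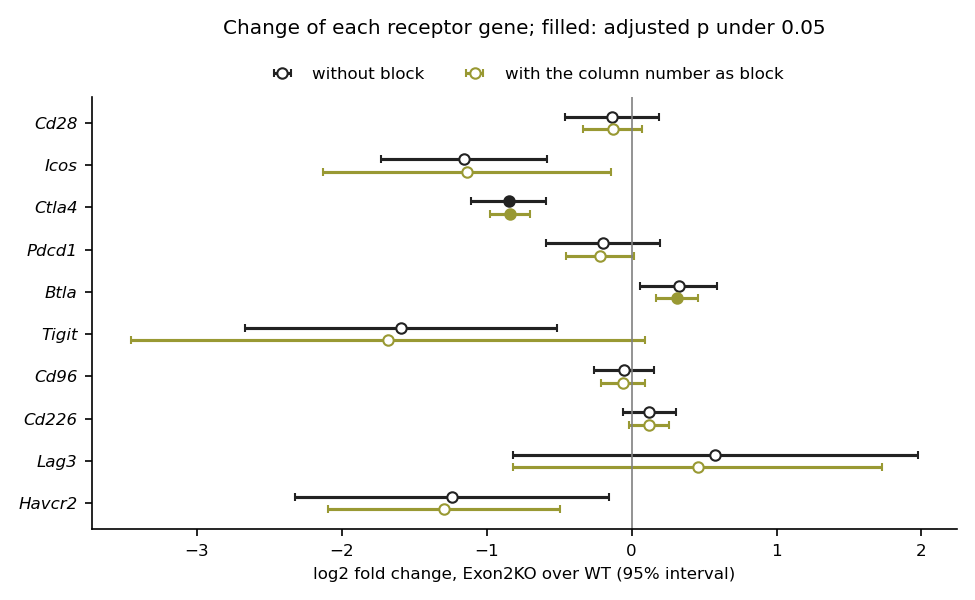
Fitted log2 fold change, Exon2KO over WT, of each receptor gene with its 95% interval, without (black) and with (olive) the column number as a block; filled points have an adjusted p under 0.05. Ctla4 is filled in both fits and Btla in the blocked fit, and the intervals of Tigit, Lag3 and Havcr2 are wide.

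Tigit (ENSMUSG00000071552, chromosome 16, 43648867 to 43664146, minus strand), an inhibitory receptor of the poliovirus receptor carried by activated Tregs, was at 102, 130 and 141 CPM in WT 2, 6 and 20. Exon2KO 2, 6 and 20 were at 34.2, 65.9 and 23.1 CPM. The groups were far apart, and the Exon2KO values themselves spread widely, with number 6 the highest. The fitted log2 difference was -1.59 ± 0.42 (SE; 95% interval -2.67 to -0.52), with an unadjusted p of 0.0125 and an adjusted p of 0.203 by edgeR. The pairs differed by -1.57, -0.98 and -2.61 for numbers 2, 6 and 20. Without Exon2KO 6 the value was -2.12 and was called (adjusted p = 0.0106 by edgeR). DESeq2 (adjusted p = 0.0255) and limma-voom (adjusted p = 0.0307) called it with all libraries.

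The 250 bases before the RefSeq transcription start of Ctla4 and of Tigit are shown because these are the 2 genes, among those with the groups apart, that matched the RefSeq promoter table (6 of the 10 genes matched; build GRCm38.p6). Capitals mark GGAAA or its reverse complement TTTCC, the core that NFAT factors bind, searched on both strands; 55.6% of 32851 promoter windows of this length hold it. The forkhead core TAAACA (or TGTTTA), held by 12.03% of the windows, does not occur in either window. The Ctla4 window is chr1:60908775-60909024, plus strand, inside the span that the deposited table gives for the gene, and the Tigit window is chr16:43664185-43664434, minus strand, printed 5′ to 3′ on that strand.
Ctla4: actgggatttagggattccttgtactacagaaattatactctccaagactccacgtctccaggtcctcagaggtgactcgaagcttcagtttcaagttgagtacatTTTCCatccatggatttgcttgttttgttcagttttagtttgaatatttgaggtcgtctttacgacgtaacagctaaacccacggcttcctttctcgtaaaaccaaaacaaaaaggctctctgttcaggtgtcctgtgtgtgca
Tigit: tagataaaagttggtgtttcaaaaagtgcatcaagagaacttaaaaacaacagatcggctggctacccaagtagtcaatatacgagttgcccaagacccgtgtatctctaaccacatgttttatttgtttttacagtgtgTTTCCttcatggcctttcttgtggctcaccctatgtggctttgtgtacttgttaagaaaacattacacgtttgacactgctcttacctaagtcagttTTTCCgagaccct
The Ctla4 window holds 1 such core and the Tigit window holds 2. Among the other genes that matched, the Cd96 window holds 4, that of Pdcd1 2, and those of Btla and Havcr2 0. The forkhead core does not occur in those windows either.

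Cd226 (ENSMUSG00000034028, chromosome 18, 89176967 to 89272229, plus strand), the activating receptor of the same ligand, was at 65.9, 68.2 and 60.4 CPM in WT 2, 6 and 20. Its Exon2KO values were 73.2, 72.4 and 66.0 CPM. Exon2KO was higher within each number, by 0.15, 0.09 and 0.13, though the groups overlapped. The fitted log2 difference was 0.12 ± 0.08 (SE; adjusted p = 0.674 by edgeR), with a 95% interval from -0.06 to 0.31. Cd96 (ENSMUSG00000022657, chromosome 16, 46035657 to 46120251, minus strand), a receptor of the same group, was at 176, 172 and 165 CPM in WT. Its Exon2KO values, 168, 144 and 182 CPM, lay on both sides of these. For Cd96 the fit gave -0.05 ± 0.09 (SE; adjusted p = 0.909 by edgeR).

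Tigit counts per Cd226 count were 1.54, 1.91 and 2.33 in WT 2, 6 and 20, and for Exon2KO 2, 6 and 20 they were 0.467, 0.911 and 0.350. The inhibitory receptor thus had more counts than the activating one in each WT library and fewer in each Exon2KO library; per length Tigit was the higher of them in both groups, as given below. The WT mean of 1.93 ± 0.396 was 3.34-fold the Exon2KO mean of 0.576 ± 0.296 (SD, n = 3 each), with p = 0.1 by the exact two-sided permutation test. The 2 ratios formed one family, and both exact permutation p-values stay at 0.1 after Benjamini-Hochberg adjustment.

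**Figure D4:**
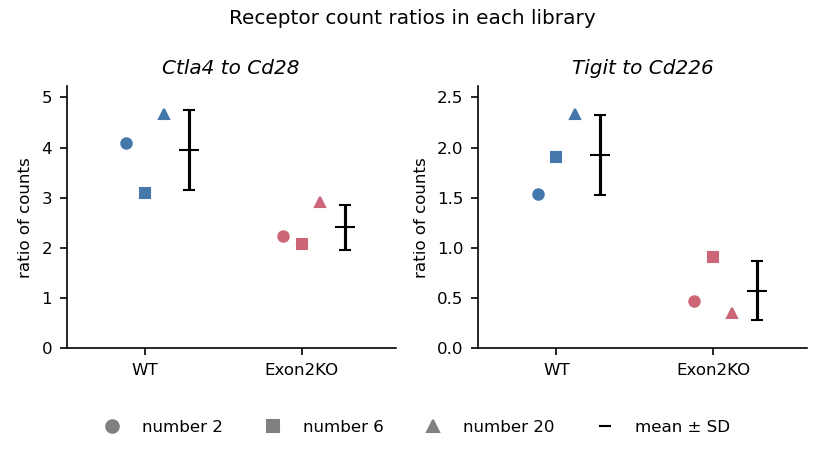
Ratio of counts within each library (linear axis from 0) of Ctla4 to Cd28 and of Tigit to Cd226, with symbols by column number and bars for mean ± SD of 3 libraries. WT ratios (3.10 to 4.67 and 1.54 to 2.33) all lie above those of Exon2KO (2.08 to 2.92 and 0.350 to 0.911).

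Lag3 (ENSMUSG00000030124, chromosome 6, 124904361 to 124911705, minus strand), a CD4-like inhibitory receptor of MHC class II, had the largest SE of the 10. WT 2, 6 and 20 were at 51.6, 93.6 and 61.3 CPM, and Exon2KO 2, 6 and 20 at 83.7, 173 and 50.4 CPM. Number 6 was highest in both genotypes, and Exon2KO 20 was the lowest library of all. The fitted log2 difference was 0.58 ± 0.53 (SE; adjusted p = 0.814 by edgeR) with an interval from -0.82 to 1.97, and it was -0.046 without Exon2KO 6. Exon2KO 6 also had the highest summed level of the 10 CD8 and NK cell markers: 80.0 CPM, against 42.5 and 48.7 CPM in the other Exon2KO libraries and 40.7 to 50.4 CPM over WT. Of that sum 22.5 CPM came from Eomes, and Cd8a was at 0.667 CPM there. By edgeR 0 of the 10 markers were called (backgrounds 1.58% lower and 0.757% higher), and 0 with the block (backgrounds 5.79% and 3.93%). The 8 follicular T cell markers summed to 166.9, 191.7 and 183.1 CPM in WT 2, 6 and 20. For Exon2KO 2, 6 and 20 they summed to 158.3, 231.5 and 121.7 CPM, so number 6 was highest and Exon2KO 20 lowest there too. The part of either marker set in the Lag3 and Tigit values was not tested.

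Havcr2 (ENSMUSG00000020399, chromosome 11, 46454935 to 46481255, plus strand), which encodes the inhibitory receptor TIM-3, had the lowest counts of the 10. WT 2, 6 and 20 gave 96, 146 and 248 counts (5.16, 8.04 and 11.6 CPM). Exon2KO 2, 6 and 20 gave 37, 118 and 42 counts (2.06, 6.05 and 2.36 CPM). Exon2KO was lower within each number, while Exon2KO 6 lay inside the WT range. Havcr2 stood at -1.24 ± 0.47 on the log2 scale (SE; adjusted p = 0.32 by edgeR), with an interval from -2.32 to -0.16; without Exon2KO 6 it was -1.92 and called (adjusted p = 0.0449 by edgeR). Myeloid cells also use Havcr2. The 11 myeloid markers summed to 24.2, 28.5 and 73.3 CPM in WT 2, 6 and 20, and to 19.8, 20.9 and 55.4 CPM for the same numbers of Exon2KO. By edgeR 0 of the 9 tested myeloid markers were called (backgrounds 1.58% lower and 0.757% higher). With the block 1 was called lower (Lyz2, -0.40) and 0 higher (backgrounds 5.79% and 3.93%). Their part in the Havcr2 values was not tested.

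The order of the genes by level was read per length, as CPM per kb of the gene length in the deposited table. In WT the levels were 135 ± 22.03 CPM per kb for Tigit, 78.3 ± 2.49 for Cd96, 64.7 ± 10.7 for Ctla4, 40.5 ± 2.32 for Btla and 38.5 ± 3.21 for Pdcd1 (SD, n = 3 each). Lag3 (32.6 ± 10.4), Icos (30.6 ± 8.55), Cd226 (13.3 ± 0.820), Cd28 (6.32 ± 1.122) and Havcr2 (3.04 ± 1.19) followed. The single WT values of neighbours in this order overlapped from Cd96 to Ctla4 and from Btla through Pdcd1 and Lag3 to Icos, so their order is not set beyond the spread. In Exon2KO the order by mean began with Cd96 (75.5 ± 8.76 CPM per kb), Btla (50.7 ± 8.40) and Lag3 (48.6 ± 30.1), before Tigit (44.7 ± 24.2) and Ctla4 (35.9 ± 2.31). Lag3 was at 39.7, 82.2 and 23.9 CPM per kb in Exon2KO 2, 6 and 20, and Tigit at 37.3, 71.7 and 25.2. Both ranges overlapped the values of Cd96, Btla and Ctla4, so the places of Lag3 and Tigit are not set beyond the spread. Cd226, the receptor set against Tigit above, was at 14.4 ± 0.809 CPM per kb in Exon2KO.

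The genes most like Ctla4 over the 6 libraries, by the smallest root mean square difference in centred log2 CPM among well-expressed protein-coding genes, were Tnfsf10 (0.0849), Itsn1 (0.102) and Larp1b (0.105). They were chosen for following Ctla4 in these same libraries. Lower values in Exon2KO thus come with the choice, and the p-values below describe the genes without testing their likeness. Tnfsf10, the gene of the death ligand TRAIL, averaged 90.6 ± 10.7 CPM in WT against 56.0 ± 3.90 CPM in Exon2KO (SD, n = 3 each) and fell by 0.70 ± 0.10 (SE; adjusted p = 0.00858 by edgeR). Larp1b fell by 0.69 (adjusted p = 0.0478 by edgeR), and Itsn1 was at -0.93 (adjusted p = 0.0794 by edgeR), a value called with the block (adjusted p = 0.00313) and by DESeq2 (adjusted p = 0.0138). The calls were lost without Exon2KO 2 for Tnfsf10 (adjusted p = 0.061 by edgeR) and in 5 of the 6 fits that left out a library for Larp1b.

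Among the genes of the ligands that these receptors bind, Cd80, Icosl and Pdcd1lg2 fell in Exon2KO. Of 17 listed ligand genes 13 were tested, 3 were called lower and 0 higher by edgeR (backgrounds 1.58% and 0.757%), and the median log2 fold change was -0.34, against 0.0084 over all tested genes. This list and the gene lists that follow were chosen with earlier results of these data known. Their counts beside the backgrounds describe the lists and do not test them. With the block 5 were called lower, with Cd86 and Cd274 added, and 1 higher, Pvr (backgrounds 5.79% and 3.93%). Cd80, which encodes a ligand of CD28 and CTLA-4, was at 7.95, 5.84 and 10.5 CPM in WT 2, 6 and 20. Its Exon2KO values were 1.95, 2.41 and 1.63 CPM. The groups were well apart; Cd80 fell by 2.02 ± 0.28 on the log2 scale (SE; adjusted p = 0.00722 by edgeR), a call lost without Exon2KO 2 (adjusted p = 0.0557).

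Icosl, the gene of the ICOS ligand, averaged 16.5 ± 1.51 CPM in WT against 9.19 ± 1.78 CPM in Exon2KO (SD, n = 3 each) and fell by 0.84 ± 0.17 (SE; adjusted p = 0.0382 by edgeR). Pdcd1lg2, the gene of PD-L2, averaged 14.6 ± 1.22 CPM in WT against 8.02 ± 1.71 CPM in Exon2KO (SD, n = 3 each) and fell by 0.86 ± 0.18 (SE; adjusted p = 0.0429 by edgeR). Both had groups that did not overlap, and 5 of the 6 fits without a library lost Icosl and 6 of 6 lost Pdcd1lg2. Cd86, the other ligand of CD28 and CTLA-4, was at -0.34 (adjusted p = 0.331 by edgeR and 0.0265 with the block). Cd274, which encodes PD-L1, was at -0.33 (adjusted p = 0.24 by edgeR and 0.015 with the block). Pvr, the shared ligand of TIGIT and CD226, was at 0.25 (adjusted p = 0.259 by edgeR and 0.0449 with the block), and Lgals3 at -0.34 (adjusted p = 0.85 by edgeR).

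**Figure D5:**
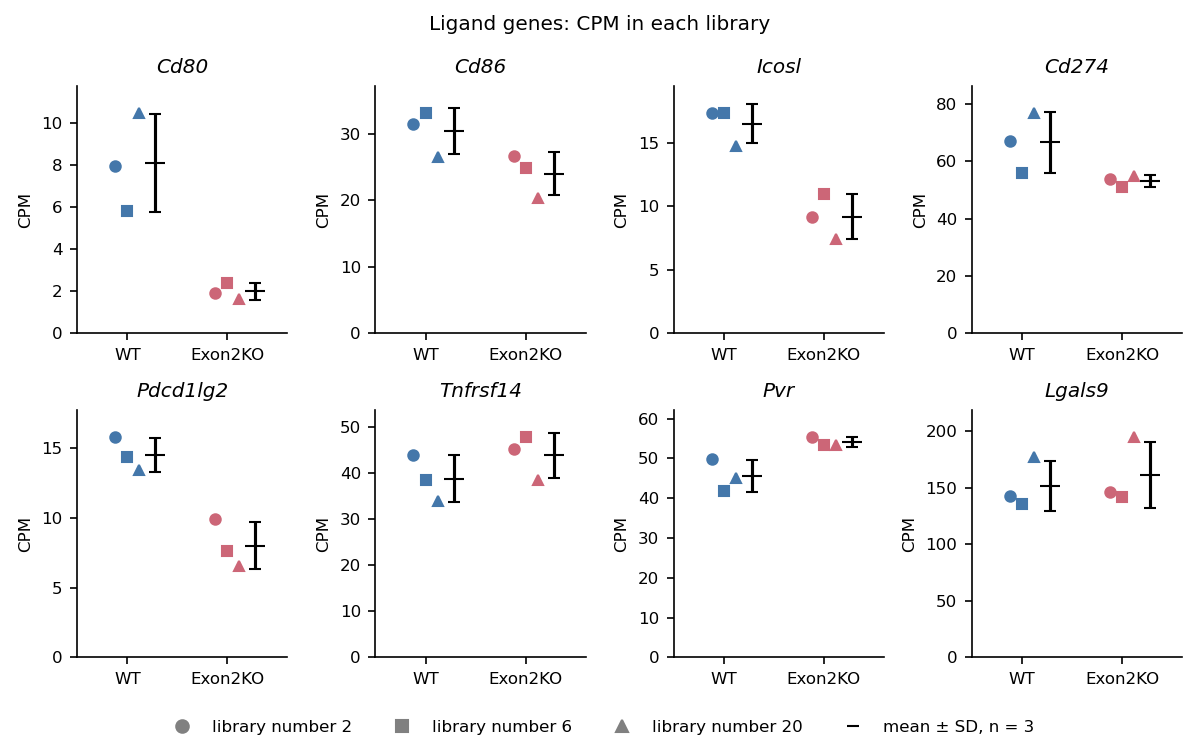
CPM (linear axis from 0) of 8 ligand genes in each WT (blue) and Exon2KO (red) library, with symbols by column number and bars for mean ± SD of 3 libraries. The groups are apart and lower in Exon2KO for Cd80, Icosl, Cd274 and Pdcd1lg2, and apart and higher for Pvr.

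B cells and dendritic cells carry these ligands too, so their markers were read beside them. The 9 B cell markers summed to between 34.9 and 35.7 CPM over WT and between 27.96 and 30.3 CPM over Exon2KO. By edgeR 0 of the 8 tested were called (backgrounds 1.58% lower and 0.757% higher). With the block 1 was called lower, Cd79b, and 0 higher (backgrounds 5.79% and 3.93%). Cd79b, the marker with the highest level, averaged 21.6 ± 1.23 CPM for WT and 15.2 ± 1.56 CPM for Exon2KO (SD, n = 3 each). Its groups were apart, with a log2 difference of -0.51 (unadjusted p = 0.00257 and adjusted p = 0.0828 by edgeR). In that fit 3 of the 8 tested markers were lower in Exon2KO. Ms4a1, which encodes the B cell antigen CD20, averaged 1.34 ± 0.557 CPM for WT and 1.45 ± 0.765 CPM for Exon2KO (SD, n = 3 each). Of the dendritic cell markers in the myeloid list, Siglech averaged 0.805 ± 0.0758 CPM for WT and 0.307 ± 0.194 CPM for Exon2KO (SD, n = 3 each), with the groups apart (log2 difference -1.37, unadjusted p = 0.0328 and adjusted p = 0.337 by edgeR). Flt3 averaged 0.905 and 0.989 CPM with overlapping groups, and Clec9a, at 0.153 and 0.164 CPM, was too low to be tested. The myeloid list as a whole had a median log2 fold change of -0.35 over its 9 tested genes. The part of such cells in the ligand values was not tested. Bulk RNA cannot tell fewer cells of one kind from less RNA per cell.

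Among 19 listed other inhibitory receptors and adaptors, 18 were tested; Cd200r1, Cd101 and Klrg1 fell and Pag1 rose, with a median of 0.013. These were 3 lower and 1 higher, beside 1.58% and 0.757% of all tested genes. With the block 3 were called lower and 2 higher, with Slamf6 added (backgrounds 5.79% and 3.93%). Cd200r1, which encodes the inhibitory receptor of CD200, averaged 39.0 ± 1.89 CPM in WT against 14.1 ± 2.98 CPM in Exon2KO (SD, n = 3 each) and fell by 1.47 ± 0.15 (SE; adjusted p = 0.00235 by edgeR). Klrg1, the receptor of E-cadherin, averaged 28.2 ± 9.58 CPM in WT against 2.60 ± 0.280 CPM in Exon2KO (SD, n = 3 each) and fell by 3.43 (adjusted p = 0.00085 by edgeR). Cd101 fell by 0.66 ± 0.09 (SE; adjusted p = 0.00851 by edgeR), a call lost without Exon2KO 2 (adjusted p = 0.061). Pag1, a membrane adaptor that holds the Src kinase inhibitor Csk, rose by 0.47 ± 0.09 (SE; adjusted p = 0.0232 by edgeR), a call that 5 of the 6 fits leaving out a library lost. Cd160, another receptor of HVEM, was at -0.57 (adjusted p = 0.243 by edgeR), Slamf6 at 0.24 (adjusted p = 0.233, and 0.0317 with the block) and Sit1 at 0.20 (adjusted p = 0.493).

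Of genes that move CTLA-4 through the cell, 0 of 10 tested were called by edgeR (backgrounds 1.58% lower and 0.757% higher) and 0 with the block (backgrounds 5.79% and 3.93%), with a median of 0.0024. Lrba, which protects CTLA-4 from degradation in lysosomes, was at 138, 118 and 160 CPM in WT 2, 6 and 20. In Exon2KO it was at 101, 111 and 93.2 CPM. The groups did not overlap, and the fit put Lrba at -0.45 ± 0.12 (SE; adjusted p = 0.0997 by edgeR). It was called lower by DESeq2 (adjusted p = 0.0196), without a count filter (adjusted p = 0.00425 by edgeR) and by the block without robust estimation (adjusted p = 0.0206 by edgeR). Rab11a was at -0.16 and Ap2b1 at -0.08 (adjusted p = 0.693 and 0.814 by edgeR).

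The 29 tested genes that signal below these receptors had a median log2 fold change of 0.052. Sh2d1a was at -0.37, Grap2 at 0.31 and Ptpn11, which encodes the phosphatase recruited by PD-1, at 0.29; their adjusted p-values were 0.111, 0.16 and 0.351 by edgeR. With the block Sh2d1a was called lower (-0.37, adjusted p = 0.00554 by edgeR) and Grap2 higher (0.32, adjusted p = 0.00409 by edgeR), while Ptpn11 was not called (adjusted p = 0.0559).

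The 20 transcription factors were listed for their known ties to these receptor genes, with earlier results of these data known. Among them Batf and Ikzf2 fell and Tcf7 rose, with a median of -0.041. These were 2 lower and 1 higher, beside 1.58% and 0.757% of all tested genes, and the blocked fit called 5 lower and 1 higher (backgrounds 5.79% and 3.93%), with Tox, Irf4 and Runx3 added. Tcf7, a factor of resting and stem-like T cells, averaged 643 ± 37.2 CPM in WT against 1133 ± 46.3 CPM in Exon2KO (SD, n = 3 each) and rose by 0.82 ± 0.08 (SE; adjusted p = 0.00151 by edgeR). Batf, an AP-1 factor of effector Tregs, fell by 0.58 (adjusted p = 0.0459 by edgeR) and Ikzf2 by 0.66 (adjusted p = 0.024 by edgeR), and for each of them 5 of the 6 fits leaving out a library lost the call. Prdm1, the gene of Blimp-1, was at 38.4, 49.5 and 51.9 CPM in WT 2, 6 and 20. Its Exon2KO values were 19.3, 31.1 and 12.5 CPM. The groups of Prdm1 did not overlap, and number 6 was its highest Exon2KO value. The same held for Tigit and also for Cd28, Icos, Pdcd1, Btla, Lag3 and Havcr2. The fitted log2 difference of Prdm1 was -1.15 ± 0.33 (SE; adjusted p = 0.206 by edgeR). Without Exon2KO 6 it was -1.56 and called (adjusted p = 0.0174 by edgeR). Eomes was at 1.05 and Nfil3 at -0.95 (adjusted p = 0.513 and 0.317 by edgeR). Without Exon2KO 6 Eomes was at 0.25, and DESeq2 called Nfil3 lower (adjusted p = 0.013). The groups of Nfil3 overlapped, and its pairs differed by -0.62, -0.43 and -1.65 for numbers 2, 6 and 20. Nfil3 ran from -1.20 to -0.50 over the other settings, and 0 of the 6 fits that left out a library called it.

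The authors' deposited table lists Ctla4 at a log2 fold change of -0.85 (adjusted p = 1.12e-08), Icos at -1.15 (adjusted p = 2.46e-07) and Tigit at -1.59 (adjusted p = 0.0259). Of the 24985 genes with an adjusted p in the authors' deposited table, 1.68% have one under 0.05 and a lower level in Exon2KO. The DESeq2 fit run here gave an adjusted p to 16488 genes, so its background share has another base. The authors' deposited table gives Havcr2 an adjusted p of 0.0517 and Btla one of 0.207. Icos and Tigit are thus below the threshold in the authors' deposited table and above it in the edgeR fit with robust estimation. The DESeq2 fit run here on the same libraries also called both lower, so the deposited values are not separate evidence.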

How the data were processed

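The submitters' processing notes name HISAT2 2.0.5, StringTie 1.3.3b, featureCounts 1.5.0-p3, DESeq2 1.16.1 and the build mm10, with no role or order; a strand setting is not given in the sources used here. Per the file headers, the deposited table holds raw counts per gene for each library, 6 FPKM columns that were not used, and the authors' comparison as group means of scaled count signal, log2 fold changes and p-values. Columns name the genotype and the number 2, 6 or 20, which no title carries, so columns were assigned to groups only. Of 55840 identifiers, 55218 have the same position in GENCODE mouse release 21 (GRCm38), all 10 receptor genes among them.

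Counts were tested with edgeR 4.0.16 in R 4.3.3 (filterByExpr, TMM, robust quasi-likelihood fit, two-sided, Benjamini-Hochberg over all 14919 tested genes, threshold 0.05). The SE is the log2 fold change over the square root of F, and CPM uses TMM-scaled library sizes; levels per length divide it by the table's gene length. The smallest level taken as shown, 3 counts, is 0.143 to 0.167 CPM and covers counting error only. Same-genotype libraries differed beyond sampling noise (chi-square per degree of freedom 8.12 to 23.6). Deviations from the group mean correlated between same-numbered libraries, at 0.271, 0.369 and 0.494 across genes for numbers 2, 6 and 20. The numbers were therefore taken to pair the libraries. Deviations within a group cancel out, so a shift shared by the libraries numbered 20 alone also raises the values for 2 and 6. Correlations between libraries of different numbers were not computed, and what a number stands for is not given. Scripts were tested on simulated data.

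Alternatives were no count filter, RLE size factors, DESeq2 1.42.0 with its own filtering in place of filterByExpr, limma-voom (limma 3.58.1), the block, libraries 2 and 6 alone, and leaving out each library; fits without robust estimation were added after seeing the data. The genes and lists were chosen with earlier results of these data known. Named besides the 10 are called genes of each list (1 signalling gene is not reported here), the 3 next largest changes with a mean of at least 5 CPM, tested protein-coding genes of the window of 500 kb, and the 3 genes most like each called receptor gene (0.1 CPM added before the log). Foxp3 and the marker lists are checks. The lists of erythroid, stromal and follicular T cell markers gave 0 called genes of 5, 3 and 7 tested by edgeR (1.58% of all tested genes were called lower and 0.757% higher); with the block (5.79% and 3.93%) Pecam1 of the stromal list was called higher, and Sh2d1a lower and Pou2af1 higher of the follicular list.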

Additional observations from a re-analysis of the deposited data

How the results depend on the processing

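Called genes numbered 348, against 617 with no count filter, 640 by DESeq2, 1450 with the replicate block, 1320 with the block but no robust estimation, and between 86 and 314 without single libraries. The 1 receptor gene called lower (Ctla4) became 3 with DESeq2, limma-voom and edgeR without robust estimation (Ctla4, Icos and Tigit in each), 4 with the block but no robust estimation (Havcr2 added), and 0 to 3 without single libraries. The 0 called higher became 1, Btla, with the replicate block, with the block but no robust estimation and with libraries 2 and 6 alone, and 0 to 1 without single libraries. Some directions turned, in no case with a call: leaving out single libraries, Cd28 ran from -0.26 to 0.0040 (without WT 6), Cd96 from -0.14 to 0.023 (without Exon2KO 6), Lag3 from -0.046 (without Exon2KO 6) to 0.90 Lgals3 from -0.60 to 0.23 (without WT 20) and Lyz2 from -0.91 to 0.040 (without WT 20), and Lgals3 was 0.16 with libraries 2 and 6 alone. The other tested genes given with a fold change or a call kept their direction in the settings run. The Exon2KO to WT fold of the Ctla4 to Cd28 ratio, 0.61, ran from 0.545 to 0.67 without single libraries, and that of the Tigit to Cd226 ratio, 0.299, from 0.212 to 0.358. Within the pairs numbered 2, 6 and 20 the log2 difference averaged -0.71 and -1.84, with p = 0.25 by an exact sign-flip permutation test, the smallest that 3 pairs allow. The same ratios from FPKM values were not run. The replicate block changed no other receptor gene's call. The cause of these differences was not tested. Havcr2 had the fewest counts of the receptor genes, as few as 37 in a library.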
